A study of Mus musculus with 7 samples.

Results

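The genes described here encode chromatin readers, writers, erasers and remodelers in RAW264.7 cells, a mouse macrophage-like line, that were wild type or labelled as a Gfi1 knockout. They were chosen by gene symbol alone: the bromodomain (Brd), chromobox (Cbx), Kmt2, Setd, Prmt, Kat, Ncoa, Kdm2 to Kdm8, Hdac4 to Hdac11, Sirt, Smarc, Arid and Chd families, with Ezh1, Ezh2, Suz12 and Eed. Of the 9999 genes that the arrays measured under a single symbol, 108 carried such a symbol. Some members have their best known work elsewhere, such as Ncoa4, a carrier of ferritin to the lysosome, and Sirt3 and Sirt5, which act in mitochondria.

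Histones carry acetyl and methyl groups that writers add, erasers remove and readers bind. Remodelers use ATP to slide, evict or restructure nucleosomes, and polycomb complexes keep genes silent through histone methylation. In macrophages these proteins are known for setting which enhancers and inflammatory genes can respond to a stimulus. Gfi1 is a zinc finger repressor of blood cells that recruits histone-modifying enzymes to DNA.

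The series held 3 arrays of wild-type cells and 4 arrays of cells labelled GfI1-1, which the series title names as a Gfi1 knockout. Both groups were untreated, at the label T0, in the same medium with fetal bovine serum and antibiotics. The labels call the arrays biological replicates, without saying whether they came from separate cultures or clones, so the p-values measure the spread between these arrays. Signals are log2 of the deposited intensity of Affymetrix probe sets. A gene is represented by its probe set of highest mean signal, and a difference is the knockout mean minus the wild-type mean on that log2 scale. A gene passed the threshold when limma's p, adjusted over all 9999 genes by the Benjamini-Hochberg method, was below 0.05.

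The signal of the targeted gene was not lower in the arrays labelled knockout. Gfi1 read 2.66, 2.85 and 2.98 in the wild-type arrays and 4.93, 5.02, 3.97 and 3.97 in the arrays labelled knockout, a rise of 1.65 (SE 0.30, adjusted p = 0.00447). This signal came from 1 probe set at the dim end of the array, and a probe set outside a deleted stretch would not report the deletion. The series' design text, moreover, names samples 1-3 as knockout, where the sample labels give 4 knockout arrays. Which arrays that text means was not settled. An RNA signal does not show whether the protein was lost, so it does not settle the genotype. What lies behind the rise was not tested, and the label, the edit and the probe set cannot be told apart here. Every direction below, signs included, therefore rests on the sample labels. Arrays labelled knockout are called knockout for short. Median array intensity lay between 93.8 and 101; precision is set by the small number of arrays. The knockout arrays formed pairs that the labels do not give: log2 differences across genes had an SD of 0.164 between replicates 1 and 2 and 0.138 between replicates 3 and 4, but 0.52 to 0.54 between the pairs. Of the 8 macrophage markers, 6 fell and 0 rose, beside 21.6% and 21.5% of all genes. The log2 of the markers' summed linear signal was 14.65 to 14.66 in wild type and 13.99 to 14.08 in knockout. The brightest markers weigh most in that sum. Of the 22 listed markers of other cell types, 0 were among the 9999 genes, so they could not be read here. The part of cell composition in the results was not tested.

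Chromatin regulators moved in both directions in the knockout arrays, and they passed the threshold about as often as genes at large. Of the 108 members, 23 rose, 25 fell and 60 did not pass the threshold. That is 44.4% of the members, beside 43.1% of all genes (21.5% higher and 21.6% lower). The median difference was -0.03 over the members and -0.01 over all genes, and the median absolute difference was 0.28 for each. Changes of at least 0.58, about 1.49-fold, were seen in 9 members that rose and 11 that fell, against 9.66% and 10.1% of all genes (19.8% in either direction). At least 2-fold, 4 rose and 1 fell, against 3.75% and 3.81%. The groups did not overlap for 58 members (53.7%), 25 higher and 33 lower, beside 54.5% of all genes (26.5% and 27.9%).

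The families differed in their balance. Arginine methyltransferases had the highest family median (0.27) and 4 of 7 rose. Chromobox readers had the lowest (-0.52), with 3 of 6 lower, followed by the nuclear receptor coactivators (-0.43), with 5 of 7 lower. No member of either of these families rose in the probe set used. Among the coactivators that fell, Ncoa2 had another probe set that passed in the opposite direction. Ncoa4 lost its call when its probe sets were averaged. Sirtuins gave 0 of 6 past the threshold in limma, beside 43.1% of all genes. An unadjusted p below 0.05 was seen in 2 of 6. The share of all genes at that looser cut was not counted, and it cannot be below 43.1%. These family values are descriptions beside the background above, and no family was tested against the others.

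**Figure D1:**
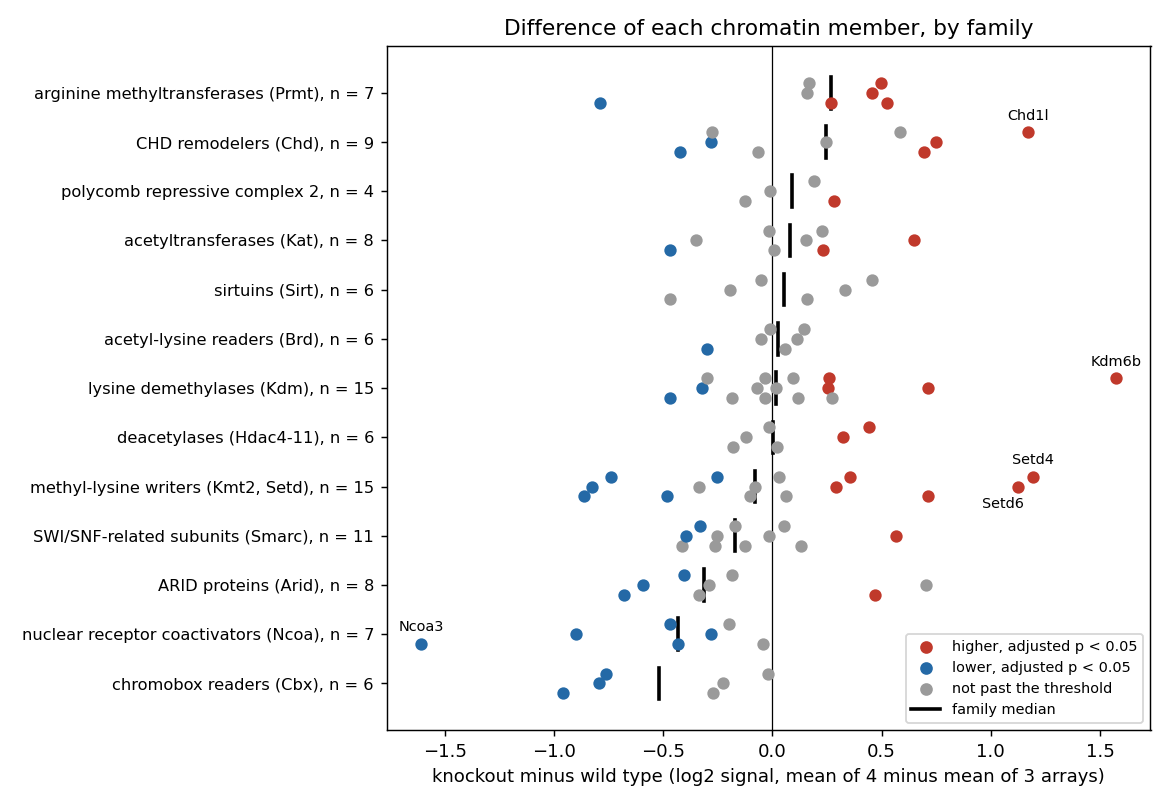
Each point is 1 of the 108 members, placed by knockout minus wild type in log2 signal (mean of 4 arrays minus mean of 3 arrays) and grouped by family, with the family median as a bar. Red points rose and blue points fell past an adjusted p of 0.05; the chromobox and coactivator families have their coloured points on the negative side, and Kdm6b lies farthest to the right at 1.57.

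Only a small part of these calls survived a stricter model. The similar knockout arrays (1 with 2, 3 with 4) were entered as random blocks, and the wild-type arrays as 1 further block. That block coincides with the wild-type group, and 1 correlation, 0.794, was applied to all blocks. Under this model 7 members passed, 6.48% beside 9.04% of all genes (4.48% higher and 4.56% lower). Chd1l, Kdm6b, Kdm7a, Setd6 and Setdb2 remained higher, and Arid1a and Kmt2e remained lower. These 7 also passed in every other setting in which they were tested. The other 41 calls were lost, and "with random blocks" below refers to this model. In a setting chosen after seeing the data, only the knockout pairs were blocks and each wild-type array stood alone: 15 members were then higher and 16 lower, 31 of the 48 calls, beside 15.8% and 15.8% of all genes (31.6% in all). Without knockout replicates 3 and 4, 38 members were higher and 39 lower, beside 34.1% and 34.1% of all genes (68.1% in all). Without replicates 1 and 2, 26 were higher and 34 lower, beside 27.7% and 29.3% (57% in all). With limma's treat against a 1.2-fold change, 11 were higher and 8 lower, beside 8.53% and 8.93% (17.5% in all).

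Among the readers, 3 of 6 chromobox genes fell, and 1 of 6 bromodomain genes passed the threshold. Cbx5 encodes HP1 alpha, which binds methylated histone H3 in heterochromatin, and Cbx6 and Cbx8 encode polycomb group readers of Polycomb repressive complex 1. Bases upstream of these 3 genes are shown because each holds an exact CACGTG, the E-box core bound by Myc, Max and Usf factors. The sequences run 5′ to 3′ on the gene's strand up to an annotated start in RefSeq's mouse assembly GRCm38.p6, with exact motif matches in capitals. They lie at chr15:103239905-103240102 for Cbx5, chr15:79834334-79834583 for Cbx6 and chr11:119040914-119041163 for Cbx8, all on the minus strand. For Cbx5 the last 52 of the 250 bases before that start are left out, since they lie within the gene's annotated span.
Cbx5: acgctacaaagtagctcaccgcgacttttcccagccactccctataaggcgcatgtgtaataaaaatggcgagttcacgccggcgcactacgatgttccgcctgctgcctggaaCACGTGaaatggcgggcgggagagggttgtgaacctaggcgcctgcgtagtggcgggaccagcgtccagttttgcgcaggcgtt
Cbx6: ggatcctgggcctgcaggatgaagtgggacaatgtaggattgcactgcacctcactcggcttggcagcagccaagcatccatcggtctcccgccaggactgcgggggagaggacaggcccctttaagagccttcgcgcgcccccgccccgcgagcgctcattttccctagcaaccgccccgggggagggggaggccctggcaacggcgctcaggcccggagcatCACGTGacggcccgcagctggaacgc
Cbx8: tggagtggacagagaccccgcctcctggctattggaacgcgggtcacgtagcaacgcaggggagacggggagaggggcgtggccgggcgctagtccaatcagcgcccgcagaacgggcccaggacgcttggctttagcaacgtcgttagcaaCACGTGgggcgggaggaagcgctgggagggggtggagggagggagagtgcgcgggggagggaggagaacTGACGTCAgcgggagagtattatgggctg
The E-box began 136 bases before the start in Cbx5, 26 in Cbx6 and 98 in Cbx8, and Cbx8 also held a CRE (TGACGTCA) 29 bases before the start. The windows of Cbx1 (HP1 beta) and Cbx7 and a further one of Cbx5 held no CACGTG, but all 3 lie inside the gene's annotated span, at a start other than the outermost one, and so are no upstream contrast.

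Cbx5 read 7.61, 7.52 and 7.49 in wild type and 6.21, 6.39, 6.92 and 6.81 in knockout. The groups did not overlap, and replicates 1 and 2 were the lowest. The difference was -0.96 (SE 0.18, adjusted p = 0.00476, 1.95-fold lower). All 3 other Cbx5 probe sets also had negative differences (-0.26, -0.59 and -0.34), of which only -0.59 passed. Cbx6 read 7.83, 7.80 and 7.87 against 6.85, 6.80, 7.32 and 7.18. Every knockout array was again below every wild-type array. It fell by 0.79 on the log2 scale (SE 0.14, adjusted p = 0.00352), and its other probe set by 0.82. Cbx8 read 5.11, 5.06 and 5.21 against 4.37, 4.38, 4.22 and 4.50, a change of -0.76 (SE 0.08, adjusted p = 0.000542) that was of like size in both pairs of knockout arrays. With random blocks the adjusted p was 0.0574 for Cbx5, 0.0505 for Cbx6 and 0.0873 for Cbx8, and over all settings it ranged up to these values. Cbx1 read 8.59, 8.63 and 8.65 against 8.35, 8.10, 8.58 and 8.37, and missed the threshold (-0.27, SE 0.11, adjusted p = 0.0808). Its mean over all 4 probe sets passed (-0.22, adjusted p = 0.026). Cbx2, another polycomb reader, differed by -0.23 with no overlap and also missed it. Cbx7 read 2.26 to 2.71 in all arrays, among the dimmest 5% of genes, and differed by -0.02.

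Bromodomain proteins bind acetylated histones. Brd2, a member of the BET family, read 9.39, 9.39 and 9.39 in wild type and 9.42, 9.33, 9.40 and 9.38 in knockout. The groups overlapped, with a difference of -0.01 (SE 0.05, adjusted p = 0.895). Its paralog Brd3 differed by 0.14 and did not pass. Brd1, a scaffold of histone acetyltransferase complexes, was the 1 bromodomain member of 6 that fell (-0.30, adjusted p = 0.0152), and it lost the call without wild-type replicate 1 (adjusted p = 0.0553).

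The lysine methyltransferases split evenly, with 5 of 15 higher, 5 lower and 5 not past the threshold. Setd4 and Setd6, both SET domain enzymes, rose more than 2-fold. Setd6 is known for methylating the RelA subunit of NF-kappaB. Setd6 read 6.67, 6.61 and 6.38 in wild type and 7.64, 7.57, 7.72 and 7.79 in knockout. The 4 knockout arrays lay close together and far above wild type, a rise of 1.12 (SE 0.09, adjusted p = 0.000174, 2.18-fold). Its other probe set gave 1.09. Setd4 read 5.81, 5.55 and 5.65 against 7.52, 6.87, 6.48 and 6.56, with replicate 1 the highest. It rose by 1.19 (SE 0.24, adjusted p = 0.00739, 2.28-fold), and by 1.28 in its other probe set, but had an adjusted p of 0.173 with random blocks. Setdb2, a protein related to the heterochromatin enzyme Setdb1 and known as a brake on inflammatory genes in macrophages, read 6.83, 6.86 and 6.89 against 7.74, 7.68, 7.44 and 7.42. No arrays overlapped, and the rise was 0.71 (SE 0.10, adjusted p = 0.00129). Setdb1 itself differed by 0.03 and did not pass. Setd5 (0.36) and Setd1a (0.29) also rose, the latter without a call when wild-type replicate 2 or 3 was left out (adjusted p 0.0527 to 0.0720). The mean of the 3 Setd5 probe sets was 0.08 and did not pass (adjusted p = 0.531). Another Setd5 probe set passed by itself at 0.53 (adjusted p = 0.0113), while the remaining one gave -0.65 and did not pass (adjusted p = 0.152).

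Kmt2e, a SET protein of the trithorax group described as lacking enzyme activity of its own, fell in every array and every probe set. It read 8.83, 8.83 and 8.85 in wild type and 7.89, 7.77, 8.09 and 8.15 in knockout. The wild-type arrays were nearly equal, and the difference was -0.86 (SE 0.10, adjusted p = 0.000686, 1.82-fold lower). Setd1b, the catalytic subunit of a COMPASS complex that methylates histone H3 at promoters, read 6.57, 6.52 and 6.66 against 5.88, 5.75, 5.95 and 5.81. All knockout arrays were lower and similar to each other, giving -0.74 (SE 0.07, adjusted p = 0.00035) and -0.83 in the other probe set. Its paralog Setd1a went the other way, as given above. With random blocks, Setd1b had an adjusted p of 0.0545. Setd7, a monomethyltransferase of histone H3 and of many other proteins, read 8.81, 8.73 and 8.71 against 7.47, 7.58, 8.33 and 8.29. Replicates 1 and 2 fell by more than the other two, and the difference was -0.83 (SE 0.23, adjusted p = 0.0247). The call ended without any 1 of the 3 wild-type arrays or knockout replicate 2 (adjusted p 0.0520 to 0.0803). Kmt2c, an enhancer methyltransferase, fell by 0.48, and Setd2, which methylates histone H3 over transcribed genes, fell by 0.25. Setd2 missed the threshold without wild-type replicate 3 (adjusted p = 0.0530). Setd3, an actin histidine methyltransferase, read 8.49, 8.34 and 8.25 against 8.33, 8.45, 8.37 and 8.53, with overlap and a difference of 0.06 (SE 0.08).

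Polycomb repressive complex 2, which writes the repressive methyl mark on histone H3, had 1 of 4 subunit genes past the threshold. Its enzyme Ezh2 rose by 0.28 (SE 0.08, adjusted p = 0.0239), and this call was lost without wild-type replicate 2 or 3 or knockout replicate 4 (adjusted p 0.0516 to 0.0906). The alternative enzyme Ezh1 differed by -0.01, an average of positive values in knockout replicates 1 and 2 (0.30 and 0.26) and negative ones in 3 and 4 (-0.34 and -0.27). Suz12, the scaffold, read 10.11, 10.02 and 10.02 in wild type and 9.75, 9.75, 10.12 and 10.11 in knockout. Only replicates 1 and 2 lay below wild type, and the difference was -0.12 (SE 0.12, adjusted p = 0.422). Eed, the subunit that binds the mark, differed by 0.19 and did not pass.

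Most arginine methyltransferases rose. Prmt1, the main enzyme of asymmetric arginine dimethylation, read 9.65, 9.57 and 9.55 in wild type and 10.09, 10.17, 10.07 and 10.14 in knockout. The knockout arrays spanned only a narrow range above wild type, and the rise was 0.53 (SE 0.06, adjusted p = 0.00061, 1.44-fold). With random blocks its adjusted p was 0.0809. Prmt9 (0.50), Prmt7 (0.45) and Prmt3 (0.27) rose as well. Prmt9 lost its call without wild-type replicate 2 or 3 (adjusted p 0.0583 to 0.0701) and Prmt3 without any 1 wild-type array (adjusted p 0.0546 to 0.0661). Prmt5, the main enzyme of symmetric dimethylation, differed by 0.16 and did not pass (adjusted p = 0.271).

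Prmt6 was the 1 arginine methyltransferase that fell, and its probe sets disagreed. It read 6.50, 6.46 and 6.37 in wild type and 5.14, 5.33, 6.13 and 6.01 in knockout. Replicates 1 and 2 were far below the other two, and the difference was -0.79 (SE 0.25, adjusted p = 0.0375). Its other probe set rose by 1.05 (adjusted p = 0.00257), and the mean of both was 0.13 and did not pass, so no direction for Prmt6 can be given. The call also ended without any 1 wild-type array or without knockout replicate 1 or 2 (adjusted p 0.0578 to 0.108). The window of Prmt1 at chr7:44986421-44986670 (minus strand) is printed to set beside those of the chromobox genes, since it held CACGTG and Prmt1 rose.
Prmt1: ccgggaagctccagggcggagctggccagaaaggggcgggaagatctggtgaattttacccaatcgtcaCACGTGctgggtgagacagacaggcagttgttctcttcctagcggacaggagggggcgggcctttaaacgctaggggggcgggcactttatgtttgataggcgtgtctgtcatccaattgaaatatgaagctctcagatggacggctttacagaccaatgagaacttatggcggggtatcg
The E-box began 181 bases before the start in Prmt1. The Prmt3 window also held CACGTG, 13 bases before the start it was drawn from and within the annotated span of the gene.

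Across the class, exact E-box letters thus stood in windows of members of either direction. Windows of 250 bases before an annotated start were found for 86 of the 108 members (111 windows, as some genes have several starts). Of these, 35 lie outside the gene's annotated span, 35 partly inside and 41 wholly inside it, so not all are upstream of the gene. CACGTG was in 14.3% of the 21 windows of members that rose, 11.1% of the 27 windows of members that fell, 4.76% of the 63 others and 6.02% of all 32851 mouse windows. AAATCA, part of the Gfi1 consensus, was in 0 of the 21 and 0 of the 27, in 3.60% of all member windows and in 12.4% of all windows, on either strand. Member windows were richer in GC (median 60.8% against 52.4%) and held a median of 18 CG dinucleotides against 6. The NF-kappaB motif was in 1.80% of member windows against 1.41%, AP-1 letters (TGANTCA) in 6.31% against 6.75%, and CRE letters in 1.80% against 1.55%. A match shows only that these letters are present.

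The acetyltransferases moved modestly and in both directions, with 2 of 8 higher and 1 lower. Kat6b, a MYST family enzyme, read 5.20, 5.07 and 4.88 in wild type and 5.58, 5.62, 5.76 and 5.83 in knockout. All knockout arrays were higher, by 0.65 on average (SE 0.10, adjusted p = 0.00227, and 0.147 with random blocks). Its paralog Kat6a fell by 0.47, a call that ended without any 1 wild-type array or knockout replicate 2 (adjusted p 0.0509 to 0.0760). Kat2b, a coactivator enzyme also called PCAF, read 8.28, 8.20 and 8.18 against 7.49, 7.52, 8.25 and 8.22. Replicates 1 and 2 were clearly lower while replicates 3 and 4 lay within the wild-type range, and the difference of -0.35 did not pass (SE 0.22, adjusted p = 0.224). Its paralog Kat2a differed by 0.01. Kat7, another MYST enzyme, rose by 0.23 in its probe set of highest mean. Another Kat7 probe set passed in the opposite direction at -0.41 (adjusted p = 0.0192), so no direction can be given. The Kat7 call also ended without wild-type replicate 1 or 2 (adjusted p 0.0661 to 0.0689).

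Nuclear receptor coactivators bind hormone and lipid receptors and bring in acetyltransferases. Ncoa3 had the largest fall of any member. It read 8.66, 8.50 and 8.35 in wild type and 6.19, 6.11, 7.67 and 7.62 in knockout. Replicates 1 and 2 lay far below replicates 3 and 4, which in turn lay below wild type. The difference was -1.61 (SE 0.43, adjusted p = 0.0218, 3.05-fold lower). Its other probe set gave -0.30 and did not pass, and the call was lost without any 1 wild-type array (adjusted p 0.0580 to 0.0763). Ncoa4 read 8.45, 8.35 and 8.39 against 7.92, 7.91, 7.96 and 7.93, with the 4 knockout arrays nearly equal. It fell by 0.47 on the log2 scale (SE 0.06, adjusted p = 0.00074), while its other probe set gave -0.03. The mean of the Ncoa4 probe sets was -0.25 and did not pass (adjusted p = 0.13). Ncoa5 fell by 0.43 and Ncoa1 by 0.28, and both depended on single wild-type arrays: without any 1 of the 3 for Ncoa5 (adjusted p 0.0504 to 0.0695) and without replicate 2 for Ncoa1 (adjusted p = 0.0653) the calls ended. Ncoa6 (-0.05) and Ncoa7 (-0.20) did not pass.

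Ncoa2, also known as GRIP1 and a partner of the glucocorticoid receptor in macrophages, could not be given a direction. Its probe set of highest mean read 7.48, 7.47 and 7.35 in wild type and 6.11, 5.95, 7.12 and 6.97 in knockout. All knockout arrays were lower, replicates 1 and 2 most, with a difference of -0.90 (SE 0.30, adjusted p = 0.0448). The other probe set rose by 0.90 (adjusted p = 0.0332). The call ended without any 1 wild-type array or knockout replicate 1 or 2 (adjusted p 0.0764 to 0.120).

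**Figure D2:**
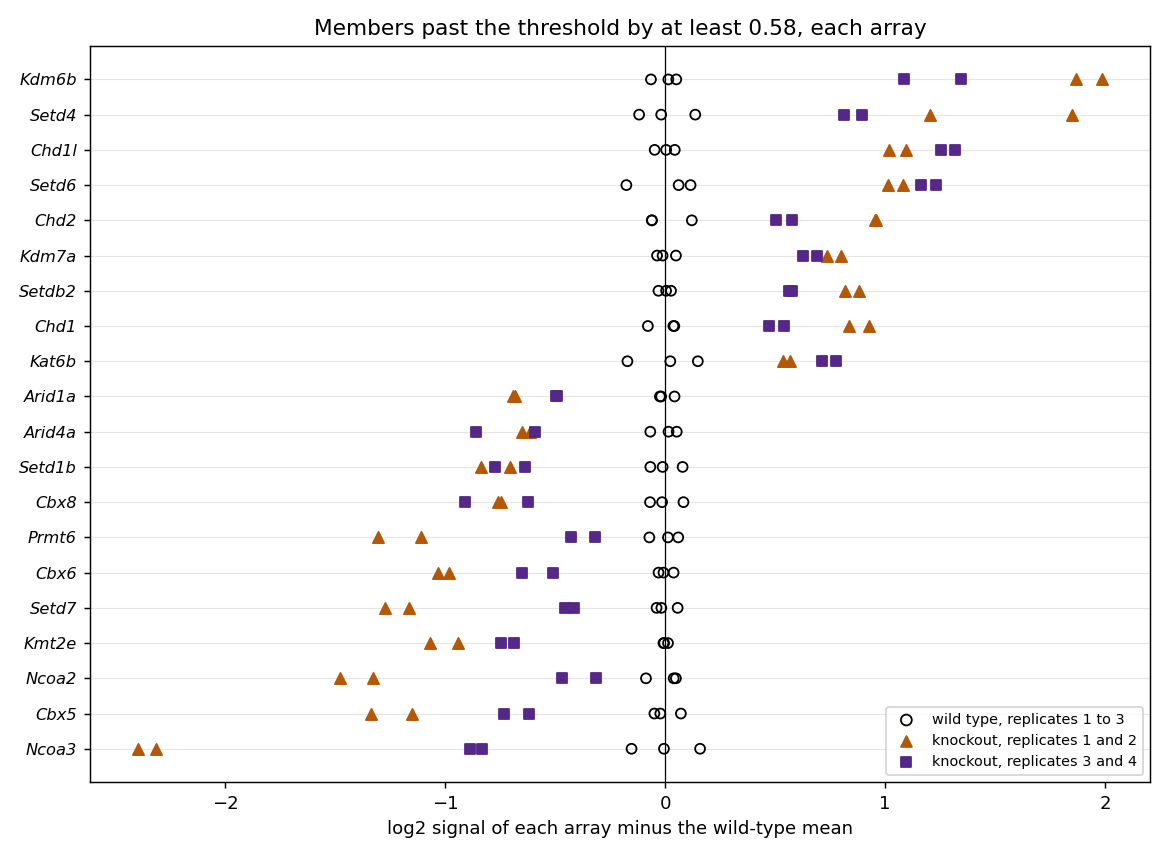
For the 20 members that passed the threshold by at least 0.58, each mark is 1 array's log2 signal minus the wild-type mean; open circles are wild type, triangles knockout replicates 1 and 2, squares knockout replicates 3 and 4. No knockout mark of these members reaches the wild-type circles, and in Ncoa3 the triangles lie far to the left of the squares, which stand at -0.83 and -0.89.

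Among the erasers, Kdm6b gave the largest rise of all members. Kdm6b, also called JMJD3, removes the polycomb methyl mark from histone H3 and is known to be induced in macrophages by inflammatory stimuli. It read 6.44, 6.40 and 6.32 in wild type and 8.26, 8.38, 7.73 and 7.48 in knockout. Every knockout array was more than 1 log2 unit above the wild-type mean, with replicates 1 and 2 highest. The rise was 1.57 (SE 0.22, adjusted p = 0.00146, 2.97-fold), and its other probe set gave 2.12. Its X-linked paralog Kdm6a differed by 0.09 and did not pass, although the mean of the 3 Kdm6a probe sets did (0.26, adjusted p = 0.0201). Of these only the dimmest passed by itself (0.64), at a mean signal of 2.92, within the range of the dimmest 5% of genes. The remaining Kdm6a probe set gave 0.06 and did not pass. Kdm7a, which removes repressive methyl marks, read 7.62, 7.53 and 7.56 against 8.30, 8.37, 8.26 and 8.19. The knockout arrays were close together and none overlapped, with a rise of 0.71 (SE 0.07, adjusted p = 0.000263, 1.64-fold). Its other probe sets gave 0.68, which passed, and 1.47, which did not.

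Other demethylases moved less. Kdm3a fell by 0.47 and Kdm3b by 0.32, both enzymes of repressive histone H3 methylation. The mean of both Kdm3b probe sets was -0.01 and did not pass (adjusted p = 0.951). Kdm4a (0.26) and Kdm4c (0.25) rose; the Kdm4a call ended without any 1 of 4 arrays (adjusted p 0.0506 to 0.0953) and that of Kdm4c without any 1 of 6 (adjusted p 0.0652 to 0.130). Kdm2b, a CpG island binding protein that recruits a polycomb complex, read 8.76, 8.56 and 8.55 against 8.09, 8.08, 8.55 and 8.57. Only replicates 1 and 2 lay below wild type, and the difference of -0.30 did not pass (SE 0.15, adjusted p = 0.150). In the Kdm5 family, which erases promoter methylation of histone H3, Kdm5a differed by 0.27, Kdm5b by -0.03 and Kdm5c by 0.11, and none passed. The mean of the 4 Kdm5a probe sets passed at 0.24 (adjusted p = 0.0143).

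Deacetylases of the Hdac4 to Hdac11 group had 2 of 6 members higher and the sirtuins 0 of 6 past the threshold. Hdac6, the cytoplasmic deacetylase of tubulin, rose by 0.44 (SE 0.07, adjusted p = 0.00244) and Hdac4 by 0.32 (SE 0.08, adjusted p = 0.0171). Hdac4 had a second probe set that passed in the opposite direction, at -0.67 (adjusted p = 0.0387). Its 2 probe sets averaged to -0.17, so no direction for Hdac4 can be given. The Hdac4 call also ended without wild-type replicate 1 or 2 (adjusted p 0.0610 to 0.0718). Hdac5 read 7.58, 7.34 and 7.36 in wild type and 7.30, 7.28, 7.23 and 7.18 in knockout. The knockout arrays were all lower, but by less than the threshold required (-0.18, SE 0.08, adjusted p = 0.104). Sirt7, a nucleolar sirtuin, read 8.22, 8.10 and 8.11 against 8.93, 8.90, 8.26 and 8.30. Replicates 1 and 2 stood well above wild type and replicates 3 and 4 just above it, and the difference of 0.45 did not pass (SE 0.19, adjusted p = 0.0907). Sirt1, which deacetylates histones and transcription factors, differed by -0.47 and missed the threshold as well.

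By the probe set of highest mean, 1 of the SWI/SNF-related genes rose, 2 fell and 8 of 11 did not pass. Smarca4, the ATPase also called BRG1, differed by 0.13, and the alternative ATPase Smarca2 fell by 0.40 (SE 0.12, adjusted p = 0.0290). The Smarca2 call ended without any 1 wild-type array or knockout replicate 1 (adjusted p 0.0656 to 0.0991). Smarce1, a BAF complex subunit, read 7.89, 7.78 and 7.75 in wild type and 8.36, 8.28, 8.45 and 8.40 in knockout. This probe set rose by 0.57 (SE 0.07, adjusted p = 0.000841) with no overlap. The other Smarce1 probe set passed in the opposite direction at -1.20 (adjusted p = 0.0365). The mean of both was -0.32, so no direction for Smarce1 can be given. Smarcad1, a remodeler of replicating chromatin, fell by 0.33 in its probe set of highest mean. Its second probe set rose by 0.33 (adjusted p = 0.00682), so no direction for Smarcad1 can be given. The Smarcad1 call also ended when wild-type replicate 2 or 3 was left out (adjusted p 0.0591 to 0.0616). Smarca5, the ISWI ATPase, read 10.11, 10.19 and 10.15 against 10.33, 10.22, 10.15 and 10.14, with overlapping groups and a difference of 0.05 (SE 0.07). A further Smarca5 probe set fell by 0.85, and the mean of its 3 probe sets fell past the threshold (-0.29, adjusted p = 0.0317).

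The ARID proteins, DNA-binding subunits of several complexes, had 3 of 8 members lower and 1 higher. Arid1a, which defines the BAF form of SWI/SNF, read 8.85, 8.85 and 8.91 in wild type and 8.19, 8.18, 8.38 and 8.38 in knockout. Replicates within each pair were nearly equal and all were below wild type, giving -0.59 (SE 0.08, adjusted p = 0.0011, 1.51-fold lower) and -0.49 in the other probe set. Its paralog and alternative subunit Arid1b fell too, by 0.40 (SE 0.08, adjusted p = 0.00615). Arid4a, a subunit of Sin3 corepressor complexes, read 6.36, 6.40 and 6.28 against 5.73, 5.70, 5.48 and 5.76. All knockout arrays were lower, by 0.68 on average (SE 0.08), and the adjusted p was 0.000842, or 0.104 with random blocks. Arid5b rose by 0.47, and the call ended without any 1 wild-type array or knockout replicate 1 or 2 (adjusted p 0.0818 to 0.138). Arid5a, an RNA-binding protein known to stabilise Il6 mRNA, differed by 0.70 and did not pass (adjusted p = 0.137), being 1.29 and 1.27 above the wild-type mean in replicates 1 and 2 and 0.14 and 0.12 above it in replicates 3 and 4.

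Among the CHD remodelers, 3 of 9 rose and 2 fell. Chd1l, also called ALC1, is activated by poly(ADP-ribose) at sites of DNA damage. It read 7.20, 7.15 and 7.24 in wild type and 8.29, 8.22, 8.52 and 8.45 in knockout. The arrays of the groups lay far apart, with replicates 3 and 4 a little above 1 and 2, and the rise was 1.17 (SE 0.09, adjusted p = 0.000116, 2.25-fold). Chd2, a remodeler of active genes, read 6.53, 6.35 and 6.34 against 7.37, 7.36, 6.98 and 6.91. It rose by 0.75 (SE 0.14, adjusted p = 0.00455), and by 0.87 in its other probe set, with no overlap. Chd1, which binds methylated histone H3 at active genes, read 5.62, 5.50 and 5.62 against 6.42, 6.51, 6.06 and 6.12. Its rise was 0.69 (SE 0.12, adjusted p = 0.00416). Of its 3 other probe sets, 1 gave 0.75, and the remaining -0.35 and -0.10 did not pass. With random blocks the adjusted p was 0.0764 for Chd2 and 0.0711 for Chd1.

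Chd4, the ATPase of the NuRD corepressor complex, went the other way. It read 9.36, 9.33 and 9.27 in wild type and 9.09, 8.95, 9.08 and 9.03 in knockout. No arrays overlapped, and the difference was -0.28 (SE 0.06, adjusted p = 0.0108). The mean of its 3 probe sets was -0.12 and did not pass (adjusted p = 0.185), and the call ended without wild-type replicate 2 (adjusted p = 0.0508). Chd9 fell by 0.42 (SE 0.09, adjusted p = 0.0101). Chd7, mutated in CHARGE syndrome, differed by 0.59 without passing: replicates 1 and 2 were 1.31 and 1.07 above the wild-type mean, and replicates 3 and 4 differed from it by 0.03 and -0.07.

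**Figure D3:**
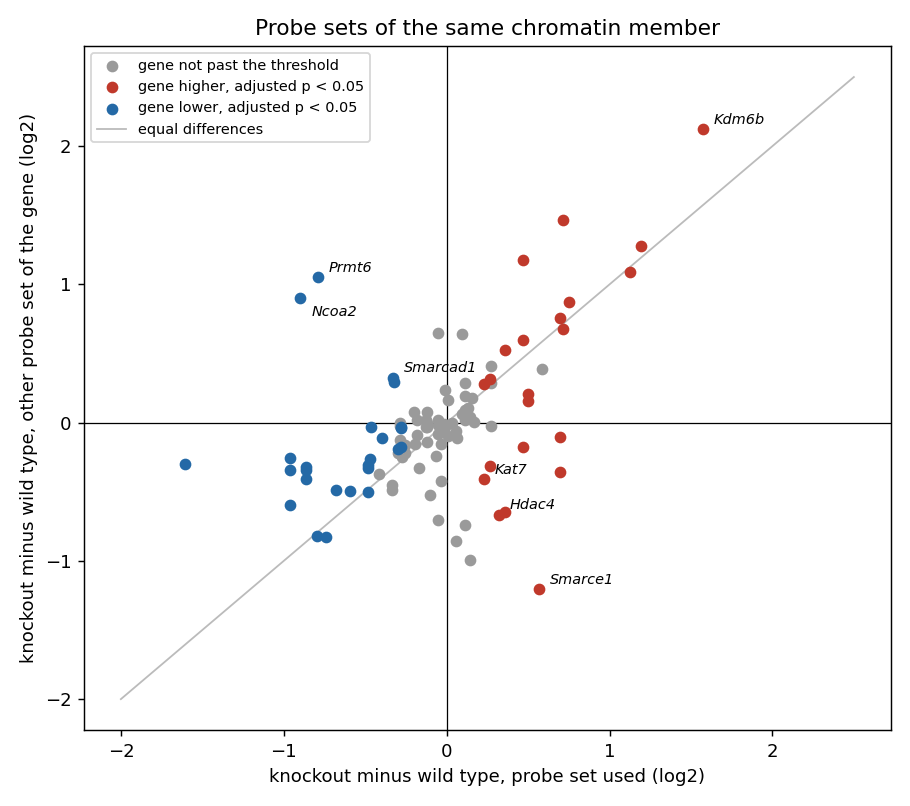
Each point sets the difference of a member's probe set of highest mean (x axis, knockout minus wild type, log2) against another probe set of the same gene (y axis, same scale); the diagonal marks equal differences. Kdm6b lies high on both axes (1.57 and 2.12), whereas Prmt6, Ncoa2, Smarcad1, Kat7, Hdac4 and Smarce1 lie in the quadrants where the signs differ.

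Probe sets of the same gene gave a measure of how far each call rests on its probe set. The members had 212 probe sets, and 63 members had several. The called members had 47 other probe sets, of which 20 passed in the same direction, 6 passed in the opposite direction and 21 did not pass. These counts were not taken over all genes. The opposite calls concerned Hdac4, Kat7, Ncoa2, Prmt6, Smarcad1 and Smarce1. When all probe sets of a gene were averaged, 34 of the 48 calls remained. Over all genes, 1760 of the 2149 higher calls and 1855 of the 2156 lower calls remained. Genes with 1 probe set keep their values when averaged. Members had more probe sets per gene (212 for 108) than genes at large (17335 for 9999), so these shares are not directly comparable. Besides the members given above with such means, Ncoa2 (0.00361), Arid5b (0.52), Brd1 (-0.24), Kat7 (0.03), Prmt3 (0.09), Smarca2 (-0.26) and Smarcad1 (-0.00271) lost their calls. Probe sets of 1 gene can report different transcript ends, and which one reports the whole gene was not tested.

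The pairs of knockout arrays differed in the members as they did in genes at large. In 60 members the distance to the mean of wild type was larger in both of replicates 1 and 2 than in either of replicates 3 and 4, and in 18 the reverse held (55.6% and 16.7%, beside 50.9% and 24.4% of all genes). Among the 48 called members the first pattern held for 29, or 60.4%, beside 56.7% of all genes called. In 20 members (18.5%, beside 16.1% of all genes) the pairs lay on opposite sides of the wild-type mean. Kdm5b, a promoter demethylase, was 0.67 and 0.45 above that mean in replicates 1 and 2 and differed from it by -0.52 and -0.73 in replicates 3 and 4. Prmt2 showed the same order, at 0.71 and 0.57 and then -0.29 and -0.31. Smarca4 showed the reverse, at -0.09 and -0.13 and then 0.34 and 0.39. A difference near 0 for these genes is thus an average of unlike arrays. Whether the pairs are clones, cultures or batches cannot be told apart.

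**Figure D4:**
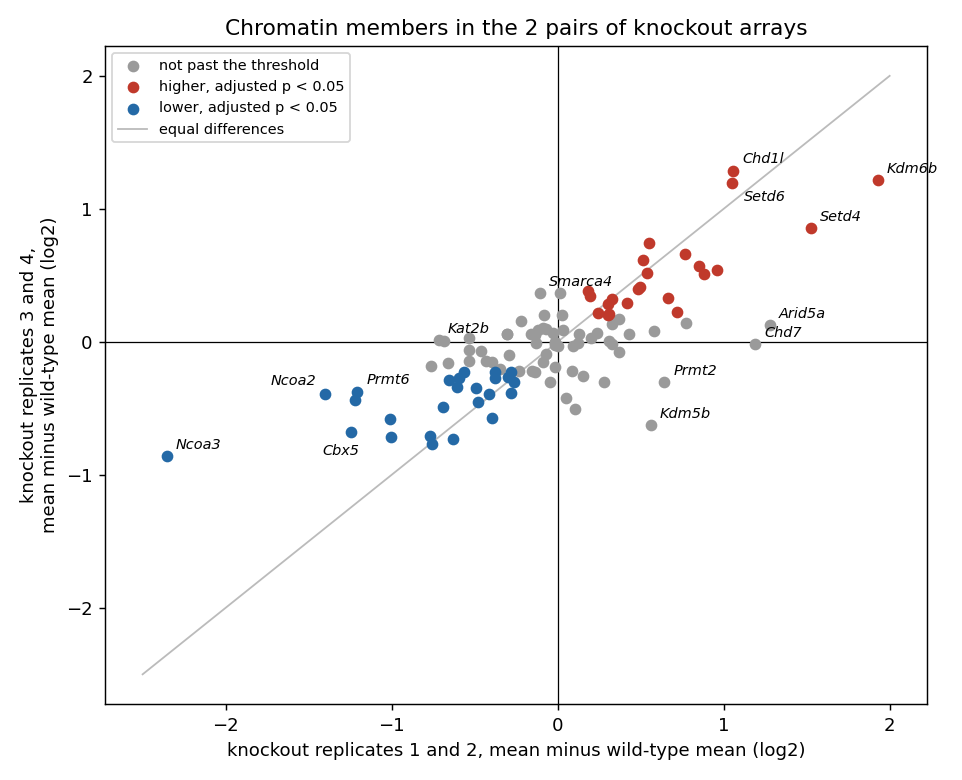
Each point is a member, with its mean difference from wild type in knockout replicates 1 and 2 on the x axis and in replicates 3 and 4 on the y axis (log2); the diagonal marks equal differences. Ncoa3, Ncoa2, Prmt6 and Cbx5 lie above the diagonal and Kdm6b below it, and Kdm5b and Prmt2 lie in the quadrant where the pairs differ in sign.

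Chromatin genes outside the symbol rule, from a list of 122 of which 109 were measured, gave 24 that rose and 17 that fell, or 37.6% in all, beside 43.1% of all genes (21.5% higher and 21.6% lower). With random blocks 4 were higher and 4 lower, beside 4.48% and 4.56% of all genes. With only the knockout pairs as blocks 16 were higher and 12 lower, beside 15.8% and 15.8%. Ing5, a reader subunit of acetyltransferase complexes, rose by 1.64 (SE 0.24, adjusted p = 0.00181). Smyd3, a SET and MYND domain methyltransferase, rose by 1.27 (SE 0.15, adjusted p = 0.000637), and Supt3, a subunit of the SAGA coactivator, by 0.98 (SE 0.07, adjusted p = 0.000104). Nsd1, a histone H3 methyltransferase, fell by 2.10 (SE 0.17, adjusted p = 0.000159) to a knockout mean of 2.58, within the range of the dimmest 5% of genes. Kdm1b, a flavin-dependent demethylase, fell by 0.92 (SE 0.14, adjusted p = 0.00205), and the DNA methyltransferase Dnmt3a by 0.71 (SE 0.07, adjusted p = 0.000277).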

How the data were processed

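RNA of untreated RAW264.7 cells was measured on Affymetrix arrays, 3 labelled wild type and 4 labelled Gfi1 knockout. The authors deposited a linear intensity per probe set; RMA is named in the submitters' processing notes, and its settings were not stated in the labels. Of 19431 probe sets, 17335 had 1 gene symbol in GEO's platform annotation, 532 several and 1564 none. Log2 was taken, and each of 9999 genes was read from its probe set of highest mean over the 7 arrays. Groups were compared with limma 3.58.1 in R 4.3.3 (lmFit, eBayes, 5 residual and 2.20 prior degrees of freedom), and p-values were adjusted by the Benjamini-Hochberg method over all genes; a gene passed below 0.05. Values for a gene's other probe sets come from the same fit over the 17335 probe sets. The script was tested on simulated data.

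Members, lists and tests were chosen with earlier results of these data known. Values in every array are given for members past the threshold by at least 0.58 and for the member of highest mean signal in each family; Smarce1 and the arrays of Ezh1, Arid5a, Chd7, Kdm5b, Prmt2 and Smarca4 were added after their values were seen. Paralogs, the 3 largest changes in each direction among other chromatin genes, Gfi1 and members with opposed probe sets are also named. Members that passed with smaller changes are named with their difference. Windows before annotated starts came from RefSeq (GRCm38.p6), leaving out bases after the start.

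Alternatives were quantile normalization, centring on the array median, leaving out dim genes (mean signal below percentile 40), a robust prior with an intensity trend, averaging the probe sets of a gene, log2(value + 16), the replicate number as a block, similar arrays as random blocks (wild-type arrays as 1 block or, added after seeing the data, each on its own), each pair of knockout arrays left out, limma's treat against a 1.2-fold change, and each array left out. Array number limits the precision.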

Additional observations from a re-analysis of the deposited data

Results flagged for a closer look

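Of 109 values tested for 1 array standing apart among the 4 knockout arrays, 2 exceeded Dixon's critical value. Chance alone marks about 1 in 20 when the 4 values are independent. The knockout arrays formed pairs of similar arrays, so that rate cannot be applied to them. Prmt7 read 8.21 in knockout replicate 1 against 8.07, 8.06 and 8.06 in the others (gap over range 0.906), with the difference from wild type positive in all 4. Smarcad1 read 7.16 in knockout replicate 2 against 6.90, 6.91 and 6.94 (gap over range 0.836), the array nearest to wild type.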

How the results depend on the processing

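The main fit gave 23 members higher and 25 lower. Random blocks over all arrays left 5 and 2. Blocks over the knockout pairs alone, added after seeing the data, left 15 and 16. Treat against 1.2-fold left 11 and 8. Leaving out dim genes tested only 65 members, and no call changed among these 65. They gave 15 and 16 (31 of the 48 calls), beside 1496 and 1446 among all genes tested then. The other calls were of genes left out. Without knockout replicates 3 and 4 there were 38 and 39. Leaving out 1 array gave 14 to 25 higher and 16 to 29 lower. There were 14 higher without wild-type replicate 2 and 16 lower without wild-type replicate 2 or 3. Without each array in turn, 14 higher and 13 lower calls held, which was not counted over all genes. For all genes (2149 higher, 2156 lower) the counts were 448 and 456 with random blocks, 3406 and 3408 without replicates 3 and 4, 853 and 893 with treat, and 1379 to 2182 and 1500 to 2289 with 1 array left out. For the other chromatin genes (24 and 17) they were 4 and 4, 38 and 33, 5 and 5, and 13 to 27 and 10 to 24. Among values past the threshold before or after the change, signs turned without replicates 3 and 4 for Ezh1 (0.28) and Kdm5b (0.56), without replicates 1 and 2 for Prmt2 (-0.30), and with the mean of probe sets for Hdac4 (-0.17), Ncoa2 (0.00361), Prmt6 (0.13), Smarca5 (-0.29) and Smarce1 (-0.32); the cause was not tested beyond the settings' own construction. The 20 members whose knockout pairs lay on opposite sides of wild type also turn sign when 1 of the pairs is left out. Same-numbered arrays did not pair: their deviations correlated at 0.124, -0.0902 and 0.106. With the replicate number as a block, 20 members were higher and 22 lower (1947 and 1858 of all genes), and 37 of the 48 calls held.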
